A study of Mus musculus with 45 samples.

Results

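The genes described here encode the basement membrane and the receptors that hold epithelial cells to it. They were 32 genes chosen by symbol, and all 32 were found among the 23366 genes of the count tables. By role they comprised 25 matrix genes (collagen IV, the multiplexins, laminins, nidogens, heparan sulfate proteoglycans and the Fraser complex) and 7 receptor genes (dystroglycan and the integrins). The list was set by gene symbol, with no threshold on a measured value. After a filter on low counts 28 members were tested among 15513 genes. The other members, Col4a4, Col4a6, Col15a1 and Lamc3, did not pass it.

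A basement membrane is a thin sheet of matrix under an epithelium. Laminin trimers of an alpha, a beta and a gamma chain assemble on the cell surface, collagen IV forms a covalently linked network beside them, and nidogens and perlecan join these networks. Epithelial cells bind laminin through dystroglycan and through integrins that pair an alpha with a beta subunit, and the beta 4 subunit belongs to hemidesmosomes. In the developing gut the sheet separates the epithelium from mesenchyme, and mesenchymal cells also make collagen IV, nidogens and some laminin chains.

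RNA was sequenced from EpCAM-positive cells of the small intestine of mouse embryos on a mixed C57BL/6 CD1 background. Each library came from 500 sorted cells, with 1 embryo behind it at E15.5 and 3 pooled embryos at E13.5. A tdTomato label had been started at E9.5 in lines named for Axin2 or Id2, genes whose alleles the labels do not describe further, and the guts were labelled wt. Cells were sorted by this label and by Lgr5, a marker of intestinal stem cells. Axin2 guts were taken at E15.5, divided into posterior and anterior, and undivided at E13.5. Id2 guts were taken at E13.5. The 4 sorted populations were labelled Lgr5-positive cells, labelled cells whose Lgr5 state the labels do not give, unlabelled Lgr5-positive cells and unlabelled Lgr5-negative cells. The 45 libraries form 15 groups of 3, and none of them is of labelled Lgr5-positive cells of the anterior gut. Populations and gut parts that carry the same replicate number may come from the same embryo or pool, which the labels do not state, so libraries of a stage may not be independent animals. How the Lgr5 signal was made, and which cells the label could reach, are not stated in the sources used here.

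Id2 libraries held 26888154 to 37729425 reads on genes and Axin2 libraries 16521311 to 19702205, so that cohort and depth cannot be told apart. Levels are given as CPM, the count of a gene scaled to a fixed total of reads on genes. Epcam lay between 1518 and 3369 CPM in every library. The cells had been sorted by EpCAM, so this level is no separate check of the epithelial label and cannot show whether other cells were present. Libraries differed in the reads of other cell types. The summed level of 12 mesenchymal marker genes ran from 2.37 to 1133 CPM with a median of 17.6 CPM. In 10 libraries it exceeded 3 times that median, or 52.8 CPM. These were 6 of the 12 Id2 libraries and 4 of the 33 Axin2 libraries. The library of Axin2-labelled Lgr5-positive cells at E13.5, replicate 1, had 669 CPM of Col3a1 and 270 CPM of Col1a1, the fibrillar collagens of mesenchyme. Unlabelled Lgr5-positive cells of the posterior gut at E15.5, replicates 1 and 3, also had 1041 and 945 CPM of summed blood markers. In bulk samples such as these, fewer cells of a type and less RNA per cell cannot be told apart.

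Levels between genes were compared per kilobase of exon. At E13.5, in the 9 Axin2 libraries of the 3 populations that were also sorted from both gut parts at E15.5, Itgb1, the beta subunit shared by most laminin and collagen receptors, led with 142 ± 10.3 CPM per kb (SD, n = 9). The next 5 were Itga6 at 18.9 ± 4.37, Dag1 at 18.5 ± 7.27, Lamb1 at 14.9 ± 3.97, Lamc1 at 10.5 ± 2.15 and Agrn at 8.83 ± 2.13 CPM per kb, and neighbours in this order, other than Lamb1 and Lamc1, differed by less than the larger of their SDs. Itga6 encodes a laminin-binding alpha subunit, Dag1 encodes dystroglycan, Lamb1 and Lamc1 the laminin chains beta 1 and gamma 1, and Agrn the proteoglycan agrin. Among laminin alpha chains, Lama1 had 3.39 ± 1.12 and Lama5 2.87 ± 0.627 CPM per kb, while Lama2, Lama3 and Lama4 reached at most 0.268, 0.555 and 0.567 CPM per kb. Lamb1 and Lamc1 thus stood several-fold above any single alpha chain gene on this scale, whereas Lamb2 and Lamb3, other beta chain genes, averaged 2.38 and 2.36 CPM per kb.

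**Figure D1:**
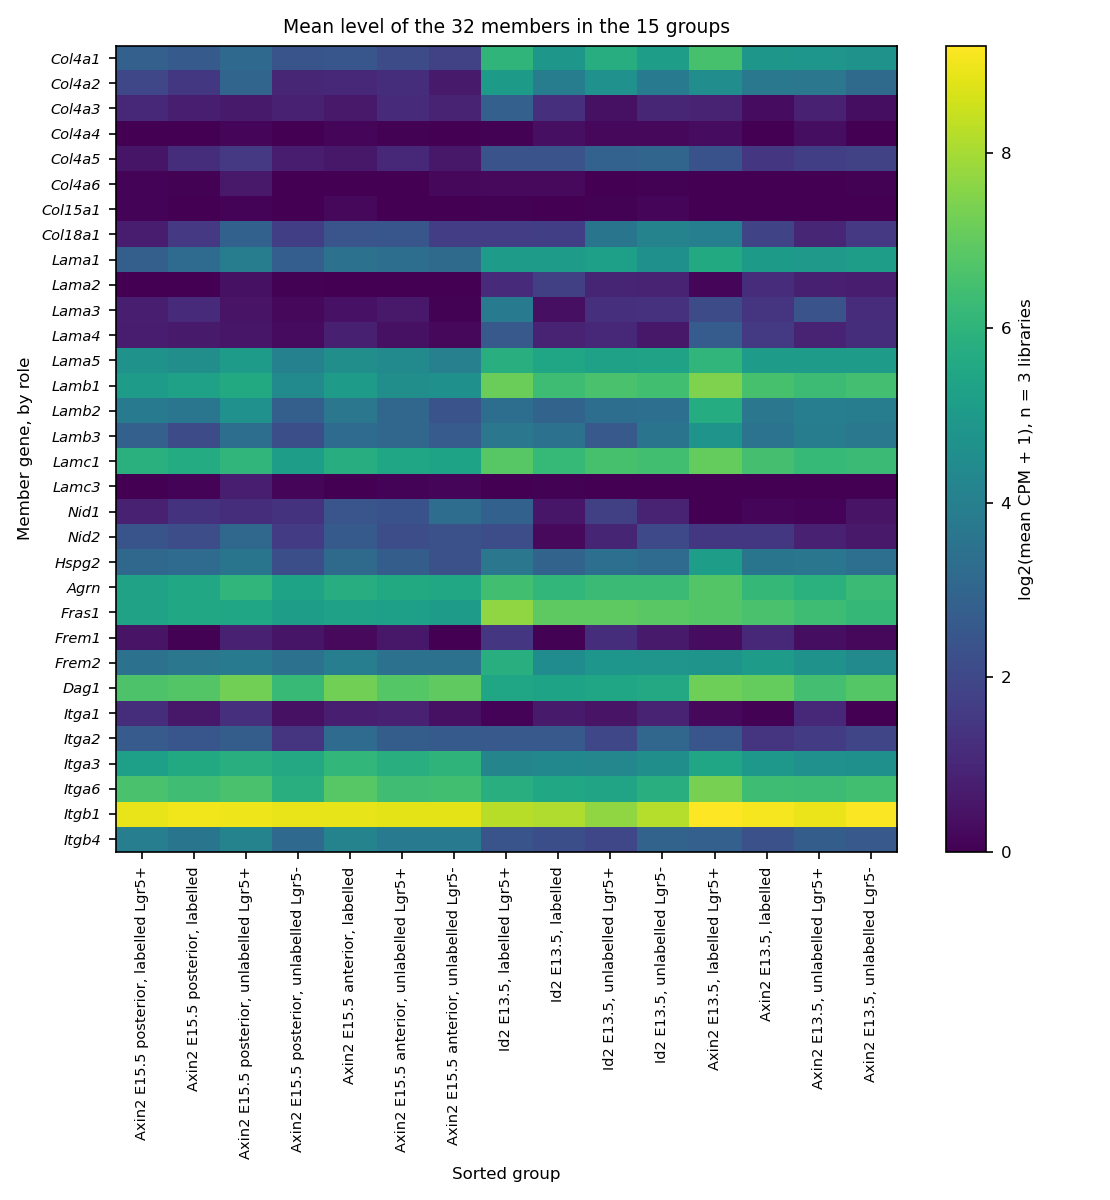
Mean level of each of the 32 members (rows, by role) in the 15 sorted groups (columns), as log2(mean CPM + 1) over 3 libraries. Itgb1 is the brightest row in all 15 groups, and Col4a4, Col4a6, Col15a1 and Lamc3 are the darkest.

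Members outside the filter were near absence. Col4a4, a collagen IV chain of kidney and other specialised membranes, had 0 reads in 24 of 45 libraries and at most 0.755 CPM. Col4a6 had 0 reads in 32 libraries and at most 1.41 CPM, Col15a1 in 34 and at most 0.468 CPM, and Lamc3 in 34 and at most 2.14 CPM. For Col4a6 and Lamc3 the highest library was the same, posterior unlabelled Lgr5-positive cells at E15.5, replicate 3, which also carried blood and mesenchymal reads. Frem1, a Fraser complex gene that passed the filter, had 0 reads in 18 libraries and at most 3.14 CPM.

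The comparison of stages gave the clearest pattern. At E15.5 the main collagen IV pair, 7 laminin chain genes and 2 Fraser complex genes were lower than at E13.5, while the nidogens and the integrin subunits Itga3, Itgb4 and Itga1 were higher. Itga1 was barely detected, and its call was lost in 1 of 27 fits that each left out 1 library. In the Axin2 cohort, 18 libraries at E15.5 were set against 9 at E13.5, each averaged over labelled, unlabelled Lgr5-positive and unlabelled Lgr5-negative cells. Of the 28 tested members 16 passed the threshold of adjusted p below 0.05, 5 higher and 11 lower. Over all 15513 genes 33.5% passed, 15.6% higher and 17.9% lower. The median log2 fold change was -0.64 over the 28 members and -0.04 over all genes. P-values are from edgeR's quasi-likelihood test with Benjamini-Hochberg adjustment over all genes tested. Stage goes with the number of embryos pooled, and those effects cannot be told apart. If populations of 1 embryo or pool were sorted together, the 18 and 9 libraries come from fewer animals than libraries, and these p-values are too small.

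**Figure D2:**
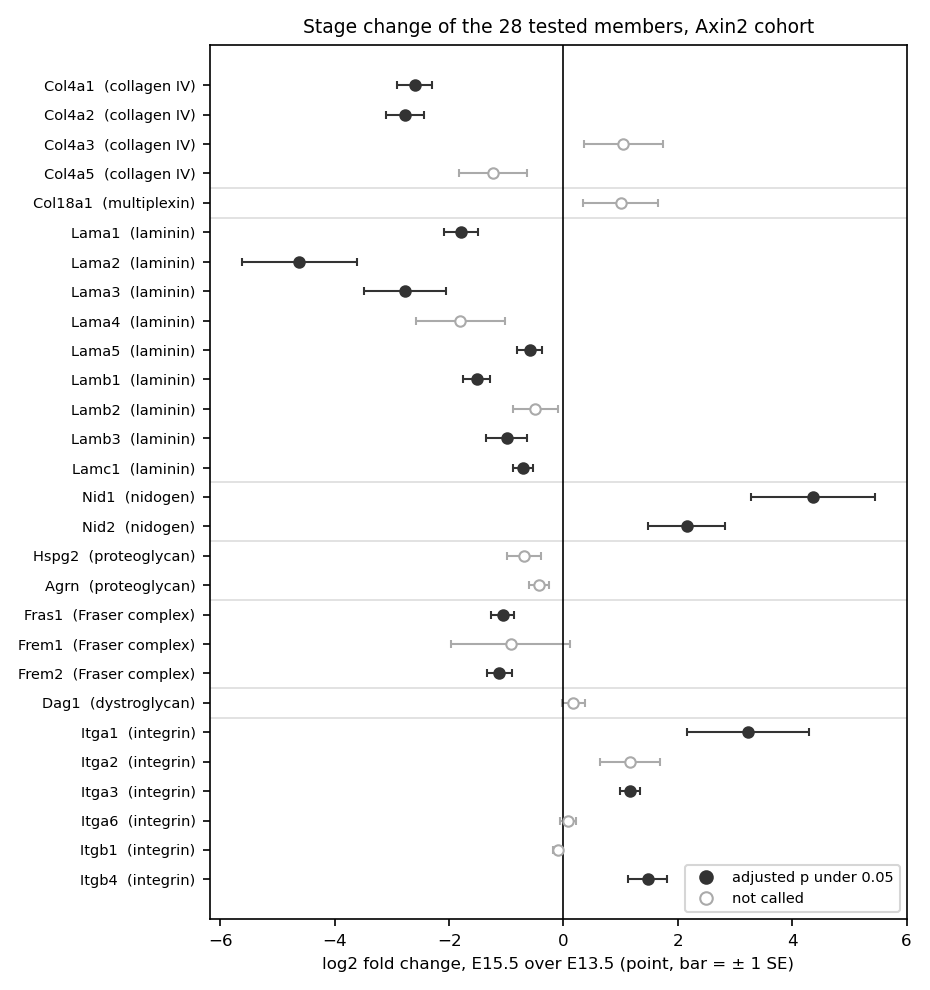
Log2 fold change of each of the 28 tested members, E15.5 over E13.5 in the Axin2 cohort, by role (point, estimate; bar, 1 SE; filled, adjusted p under 0.05). Collagen IV and laminin points lie mostly left of 0, nidogens and Itga3 and Itgb4 lie right of it, and Itgb1, Itga6 and Dag1 lie close to it.

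Collagen IV of most tissues is a trimer of the products of Col4a1 and Col4a2. Both genes fell at E15.5 by the largest factors among members above an average of 3 log2 CPM. Col4a1 had a lowest, median and highest level of 0.646, 4.54 and 10.8 CPM in E15.5 libraries, and of 14.5, 24.96 and 40.5 CPM in E13.5 libraries. All 18 E15.5 libraries lay below all 9 E13.5 libraries. The log2 fold change was -2.60 ± 0.31 (SE, adjusted p = 1.25e-08). Col4a2 had 0.431, 1.23 and 10.3 CPM at E15.5, against 6.21, 10.4 and 15.8 CPM at E13.5. Its ranges met only through the highest E15.5 library, posterior unlabelled Lgr5-positive cells replicate 3. Its log2 fold change was -2.77 ± 0.33 (adjusted p = 1.35e-08).

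The remaining chains were scarce. Col4a5 had 0, 1.03 and 2.76 CPM at E15.5, against 1.34, 2.11 and 3.74 CPM at E13.5, a log2 fold change of -1.23 ± 0.59 that was not called (adjusted p = 0.11). Col4a3 had a median of 0.58 CPM at E15.5 and 0.36 CPM at E13.5 and was not called either. Col18a1, which encodes the precursor of endostatin, had 0.207, 2.62 and 12.5 CPM at E15.5, against 0.161, 1.09 and 5.45 CPM at E13.5, with wide overlap and no call (adjusted p = 0.259).

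Col4a1 and Col4a2 lie head to head on opposite strands. Their promoter windows are printed because, among members above an average of 3 log2 CPM, these fell by the largest factors. Each window holds 250 bases before to 50 after the gene's start in the RefSeq table (build GRCm38.p6). Of the 32 members 22 had an entry there. The listed starts lie 21 bases apart, at chr8:11312826 for Col4a1 and chr8:11312805 for Col4a2, so the first transcribed bases overlap. The Col4a1 window is chr8:11312777-11313076 on the minus strand and the Col4a2 window is chr8:11312555-11312854 on the plus strand. Capitals mark the 78 bases that both windows contain, read from opposite strands, and include the 50 bases after each gene's start.
Col4a1: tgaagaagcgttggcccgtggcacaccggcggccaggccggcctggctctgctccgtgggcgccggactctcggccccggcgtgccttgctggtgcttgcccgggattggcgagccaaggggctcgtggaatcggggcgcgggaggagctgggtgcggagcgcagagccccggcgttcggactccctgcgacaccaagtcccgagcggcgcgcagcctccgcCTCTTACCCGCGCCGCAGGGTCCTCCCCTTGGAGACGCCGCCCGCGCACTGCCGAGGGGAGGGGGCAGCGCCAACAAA
Col4a2: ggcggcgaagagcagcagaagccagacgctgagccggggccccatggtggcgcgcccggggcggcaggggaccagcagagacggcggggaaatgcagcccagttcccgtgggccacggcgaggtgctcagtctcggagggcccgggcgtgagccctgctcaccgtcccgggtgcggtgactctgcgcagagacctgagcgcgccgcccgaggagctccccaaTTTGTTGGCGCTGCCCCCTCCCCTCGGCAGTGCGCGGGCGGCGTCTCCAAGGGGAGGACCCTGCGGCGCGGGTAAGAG

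Both windows are rich in G and C, at 74% for Col4a1 and 73.7% for Col4a2, against a median of 52.7% over 32851 promoters of the table. They hold 37 and 33 CG pairs, against a median of 7. The letters GGGCGG, searched on both strands, occur once in the Col4a1 window and 3 times in the Col4a2 window, with 1 match inside the shared stretch, and 35.7% of all promoters hold them. CCAAT on either strand occurs 1 time in each window, in Col4a2 ending on the first base of the shared stretch, and in 37.4% of promoters. The 2 motifs do not overlap in their letters. Such matches describe the sequence and name no bound factor. Within libraries the ratio of Col4a1 to Col4a2 CPM had a median of 2.85 at E15.5 (1.05 to 7.83) and of 2.52 at E13.5 (1.74 to 3.49).

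Among laminin genes 7 of 9 tested members fell and none rose. Lama1, the alpha 1 chain of early embryonic basement membranes, had 2.98, 8.06 and 21.1 CPM at E15.5 and 20.7, 29.7 and 55.2 CPM at E13.5. The ranges overlapped through 1 library at E15.5, and the log2 fold change was -1.80 ± 0.29 (adjusted p = 6.97e-06). Lamb1 had 14.9, 28.3 and 62.2 CPM at E15.5 and 55.6, 87.9 and 122 CPM at E13.5. It too overlapped through 1 library at E15.5, again posterior unlabelled Lgr5-positive replicate 3, with a log2 fold change of -1.52 ± 0.24 (adjusted p = 3.09e-06).

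Lamc1 moved less. Its levels were 28.4, 47.1 and 92.1 CPM at E15.5 and 61.9, 71.9 and 101 CPM at E13.5, a log2 fold change of -0.71 ± 0.17 (adjusted p = 0.00126). Lama5, the alpha 5 chain that comes to predominate in mature epithelia, had 13.9, 19.4 and 54.1 CPM at E15.5 and 20.0, 33.2 and 43.7 CPM at E13.5. These ranges overlapped widely, and the call was thin, with a log2 fold change of -0.59 ± 0.22 (adjusted p = 0.0352). It was lost in 14 of the 27 fits that each left out 1 library of this comparison, with adjusted p up to 0.124, without unlabelled Lgr5-negative cells at E13.5, replicate 2.

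Lama3 and Lamb3 encode chains of laminin-332, the ligand of hemidesmosomes in skin. Lamb3 had 1.71, 5.40 and 16.5 CPM at E15.5 and 4.61, 10.9 and 29.5 CPM at E13.5, with a log2 fold change of -0.996 ± 0.354 (adjusted p = 0.0265). Its call was lost in 5 of 27 such fits, and without unlabelled Lgr5-positive cells at E13.5, replicate 2, the change was -0.58 with adjusted p = 0.24. Lama3 was lower still, at most 1.54 CPM at E15.5 and 5.96 CPM at E13.5, with a log2 fold change of -2.77 ± 0.72 (adjusted p = 0.00257). Lama2, a chain of muscle and mesenchymal basement membranes, had a median of 0 CPM at E15.5 and 0.926 CPM at E13.5 and was also called lower, at -4.62 ± 1.00 (adjusted p = 0.000451). Lama4, an endothelial and mesenchymal chain, had 0.23 CPM at E15.5 and 1.44 CPM at E13.5 at the median and was not called, and neither was Lamb2 with medians of 8.03 and 10.7 CPM at E15.5 and E13.5.

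Because Lama1 fell by more than Lama5, their proportion within libraries differed. Lama1 made up 18.3 to 46.6% of the summed Lama1 and Lama5 CPM per kb at E15.5, with a median of 31.5%, and 44.6 to 61.7% at E13.5, with a median of 55.2%. In the Id2 libraries at E13.5 the share was 33.2 to 58.8% with a median of 44.5%. These shares are descriptions and were not tested.

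Nidogens, the linkers of laminin to collagen IV, went the other way from both. Nid1 had 0, 2.91 and 10.7 CPM at E15.5, against 0, 0 and 0.887 CPM at E13.5. Most of these Axin2 libraries at E13.5 had no Nid1 read, and the fitted log2 fold change was 4.37 ± 1.08 (adjusted p = 0.00163). Nid2 had 1.33, 3.77 and 10.5 CPM at E15.5, against 0, 1.09 and 2.304 CPM at E13.5, with a log2 fold change of 2.15 ± 0.68 (adjusted p = 0.0126). In the 12 Id2 libraries at E13.5, Nid1 had 0, 0.371 and 18.8 CPM and Nid2 had 0, 0.460 and 8.59 CPM. That Nid1 value was its highest in the series, in labelled Lgr5-positive cells, replicate 1, over the mesenchymal limit. Within E15.5, Nid1 was lower in posterior than in anterior gut by level. Its lowest, median and highest level was 0, 1.19 and 4.17 CPM in the 9 posterior libraries and 2.63, 5.31 and 10.7 CPM in the 9 anterior libraries. That difference was not called (log2 fold change -1.87 ± 0.97, adjusted p = 0.414).

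The proteoglycans stayed below the threshold. Agrn, the most abundant of the group, had 32.7, 44.8 and 116 CPM at E15.5 and 50.6, 70.8 and 104 CPM at E13.5 (log2 fold change -0.44 ± 0.18, adjusted p = 0.0527). Hspg2, which encodes perlecan, had medians of 5.89 CPM at E15.5 and 9.87 CPM at E13.5 (adjusted p = 0.0688). Both were lower at E15.5 by median level without passing the test.

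FRAS1 and FREM2 form a complex under embryonic epithelia that anchors them during organ formation. Fras1 had 26.8, 37.7 and 56.5 CPM at E15.5 and 64.4, 82.7 and 107 CPM at E13.5. Frem2 had 6.68, 11.4 and 16.5 CPM at E15.5 and 17.1, 27.5 and 34.6 CPM at E13.5. In both genes every E15.5 library lay below every E13.5 library. The log2 fold change was -1.06 ± 0.20 for Fras1 (adjusted p = 5.49e-05) and -1.12 ± 0.22 for Frem2 (adjusted p = 7.75e-05). Groups that did not overlap were found for 3 members in all, Col4a1 included, and for 6.69% of all genes tested.

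**Figure D3:**
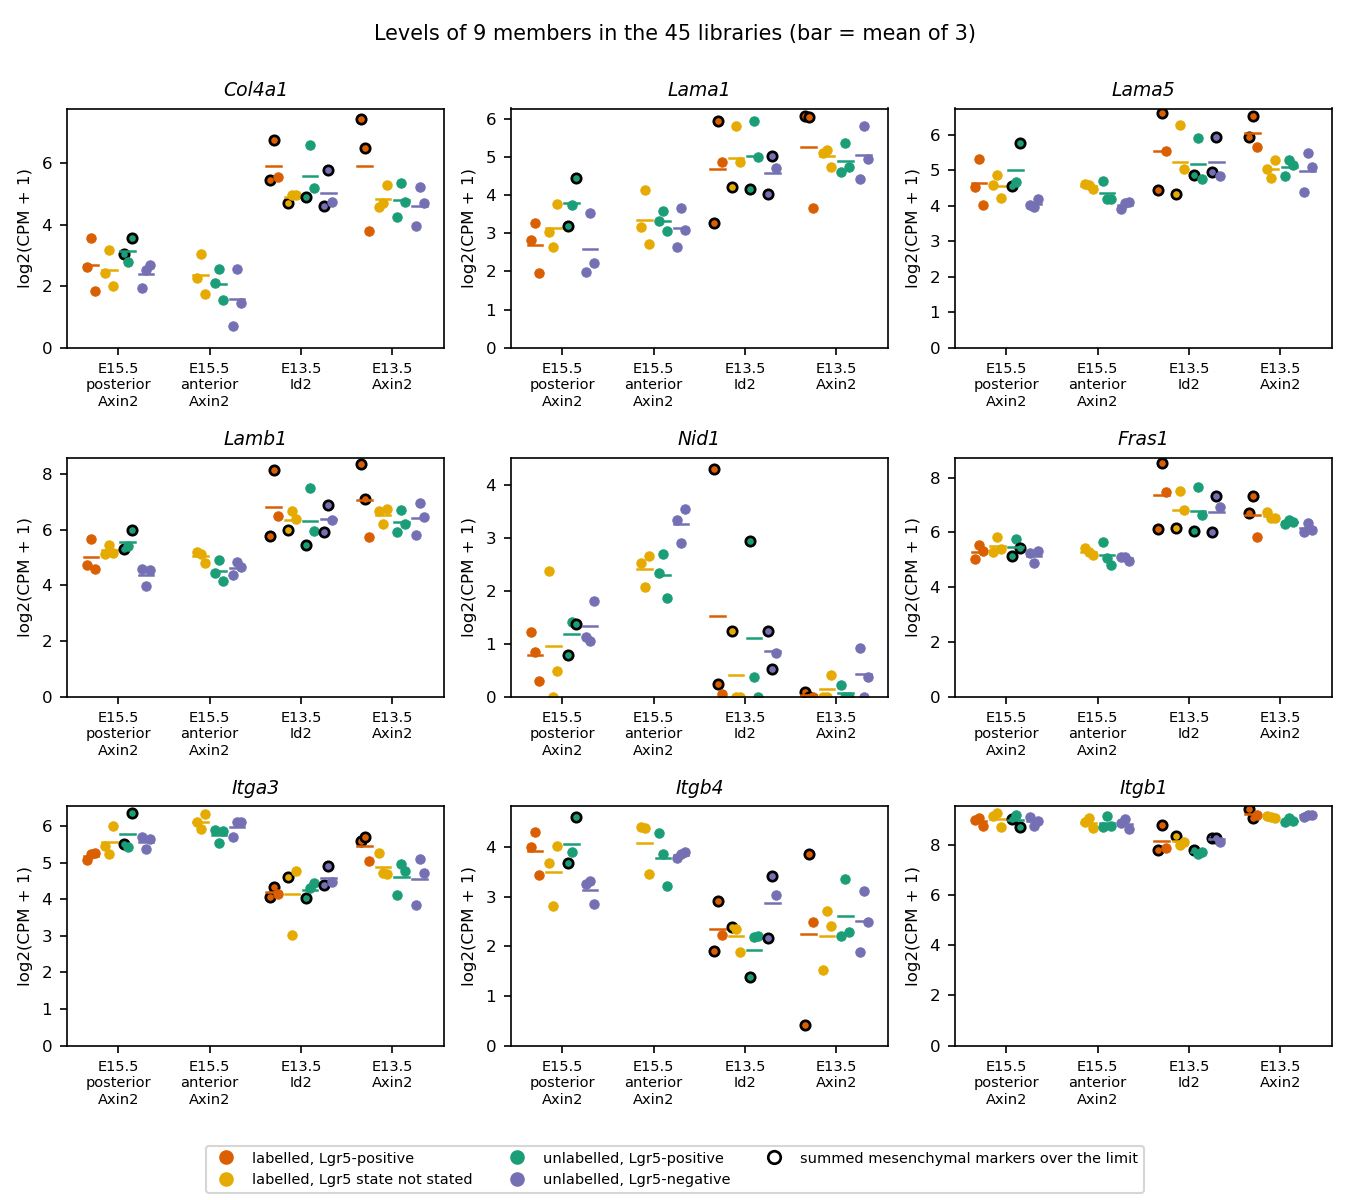
Level of 9 members in each of the 45 libraries, as log2(CPM + 1), by stage, gut part and cohort (horizontal position) and sorted population (colour); short bars are means of 3 libraries and black rims mark the 10 libraries over the mesenchymal limit. Outside labelled Lgr5-positive cells, Col4a1 and Fras1 lie lower in the E15.5 libraries than in the Axin2 libraries of E13.5, Itga3 lies mostly higher there, and Itgb1 is nearly level within the Axin2 cohort.

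Receptors showed a different balance, with 3 of 7 tested members higher and none lower. Itga3, whose product pairs with the beta 1 subunit to bind laminin, had 36.9, 54.1 and 81.5 CPM at E15.5 and 13.4, 25.5 and 37.1 CPM at E13.5. The ranges touched at their ends only, and the log2 fold change was 1.16 ± 0.17 (adjusted p = 1.03e-06). Itgb4, the hemidesmosomal partner of the alpha 6 subunit, had 6.05, 13.1 and 23.4 CPM at E15.5 and 1.88, 4.30 and 9.20 CPM at E13.5. Its log2 fold change was 1.47 ± 0.34 (adjusted p = 0.000844). Itga1, the alpha subunit of a collagen receptor, was barely detected, with medians of 0.47 CPM at E15.5 and 0 CPM at E13.5. The means were 0.670 CPM at E15.5 and 0.383 CPM at E13.5, while the fitted log2 fold change, an average over populations that include groups without reads, was 3.22 ± 1.07 (adjusted p = 0.0177). Without posterior unlabelled Lgr5-negative cells at E15.5, replicate 1, the change was 2.25 with adjusted p = 0.999993.

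The abundant receptors did not pass. Itgb1 had 393, 484 and 618 CPM at E15.5 and 478, 554 and 585 CPM at E13.5. Its log2 fold change was -0.10 ± 0.09, with an approximate 95% interval of -0.28 to 0.08. Itga6 had medians of 87.4 CPM at E15.5 and 85.7 CPM at E13.5 (interval of the log2 change -0.19 to 0.34), and Dag1 had 51.2, 119 and 245 CPM at E15.5 and 61.1, 104 and 179 CPM at E13.5 (interval -0.23 to 0.58). Itga2, another collagen receptor subunit, had 5.44 CPM at E15.5 and 2.19 CPM at E13.5 at the median, without a call (adjusted p = 0.0896).

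Within libraries, Itga3 made up 25.5 to 46.6% of the summed Itga3 and Itga6 CPM per kb at E15.5 and 17.3 to 26.4% at E13.5, with medians of 35.8% and 19.8%. Summed over all 25 matrix members, the level was 168 to 545 CPM at E15.5 and 340 to 651 CPM at E13.5, with medians of 236 and 480 CPM. Summed over the 7 receptor members it was 573 to 913 CPM at E15.5 and 633 to 928 CPM at E13.5, with medians of 772 and 790 CPM. The matrix sum was thus lower at E15.5 in most libraries, whereas the receptor sums spanned nearly the same range. The E15.5 library with the highest matrix sum was posterior unlabelled Lgr5-positive cells, replicate 3.

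**Figure D4:**
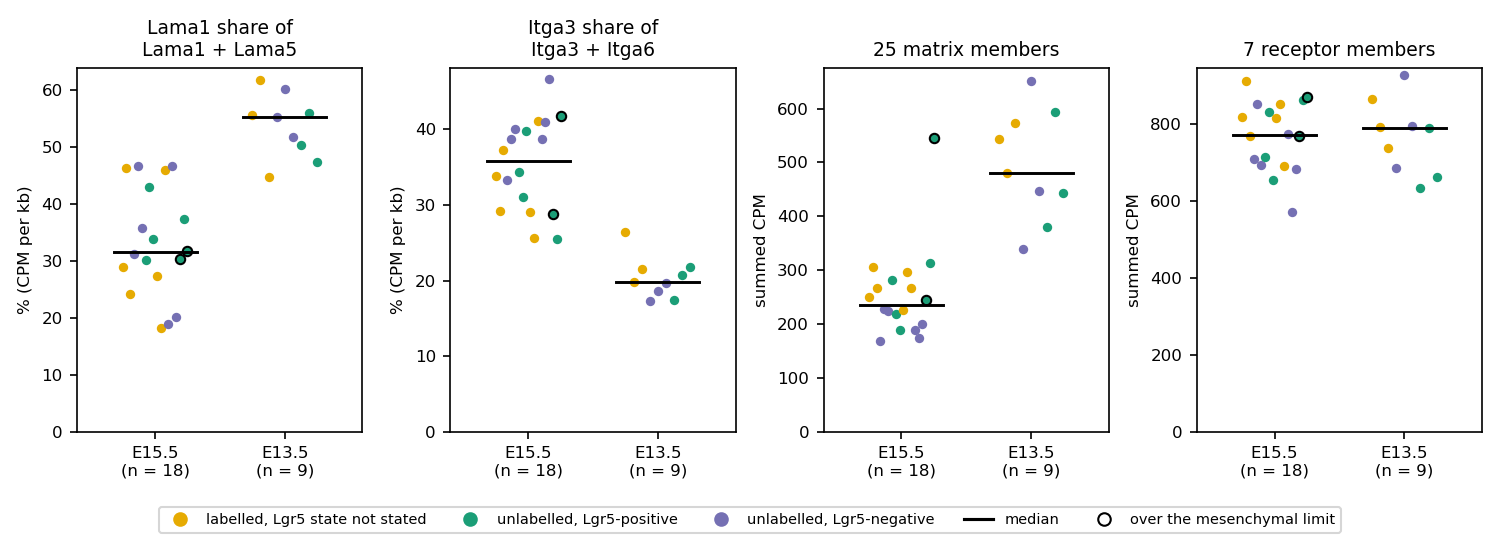
Shares and sums per library in the Axin2 cohort, E15.5 (18 libraries) left of E13.5 (9 libraries); points are libraries, coloured by sorted population, lines are medians and black rims mark libraries over the mesenchymal limit. The Lama1 share has a median of 31.5% at E15.5 and 55.2% at E13.5, the Itga3 share 35.8% and 19.8%, the matrix sum 236 and 480 CPM, and the receptor sum 772 and 790 CPM.

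The summed mesenchymal markers had a median of 10.2 CPM at E15.5 (6.23 to 116) and of 25.2 CPM at E13.5 (8.71 to 46.6). Of 11 tested markers, Col3a1 was lower (log2 fold change -1.96), Prrx1 was higher (6.24) and 9 were not called. Prrx1 was near absence, with a median of 0.0605 CPM over all libraries and 0 reads in 19. Its highest level, 6.39 CPM, was in posterior unlabelled Lgr5-positive cells at E15.5, replicate 1, a library over the mesenchymal limit. The changes of the 9 markers not called ran from -1.55 (Postn) to 0.87 (Lum). Libraries without a read numbered 12 of 18 at E15.5 and 6 of 9 at E13.5 for Twist1, 6 and 2 for Pdgfra, and 4 and 5 for Foxf2. By contrast, Col1a1 and Col3a1 had reads in every library of both stages. Col1a1 reached 3.50 CPM at E15.5 and 9.75 CPM at E13.5, and Col3a1 13.3 and 15.7 CPM. For the endothelial markers they were 9 of 18 and 7 of 9 for Cdh5, and 3 and 6 for Pecam1. Summed mesothelial markers had medians of 40.2 CPM at E15.5 and 18.7 CPM at E13.5 (1 of 4 higher, 1 lower), smooth muscle markers 12.5 and 24.8 CPM (0 of 6 called), enteric neural crest markers 18.4 and 12.4 CPM (1 of 6 higher, 2 lower), endothelial markers 2.20 and 1.98 CPM, and blood markers 3.69 and 4.80 CPM (0 called in both). The part of these cell types in the result was not tested. Of 8 epithelial markers 6 were higher at E15.5, the sums being 7631 to 10447 CPM there and 5811 to 7908 CPM at E13.5. With the summed mesenchymal level as a covariate the Col4a1 change was -2.50 and the members' counts were again 5 higher and 11 lower. Without the 10 libraries over the mesenchymal limit the Col4a1 change was -2.65. Of 29 members tested in that fit 6 were higher and 13 lower, against 38.9% of all genes called. Of the libraries removed, only posterior unlabelled Lgr5-positive cells at E15.5, replicates 1 and 3, belonged to the stage comparison. No E13.5 library of that comparison was removed, so this fit does not address mesenchymal reads at E13.5.

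Taken by population, the stage change of Col4a1 was called in all 3. In labelled cells it averaged 4.81 ± 2.31 CPM at E15.5 and 28.6 ± 8.30 CPM at E13.5 (SD, n = 6 and 3), a log2 fold change of -2.53 ± 0.53. In unlabelled Lgr5-positive cells it averaged 5.70 ± 3.15 CPM at E15.5 and 28.1 ± 11.3 CPM at E13.5, a change of -2.40 ± 0.53. In unlabelled Lgr5-negative cells it averaged 3.38 ± 1.93 CPM at E15.5 and 25.3 ± 11.0 CPM at E13.5, a change of -2.88 ± 0.53. The adjusted p-values from edgeR's model over all genes were 0.000755, 0.00189 and 0.000163.

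In labelled cells 9 members were called, 2 higher and 7 lower, against 12.4% of all genes, 5.43% higher and 6.98% lower. Those lower were Col4a1, Col4a2, Lama1, Lama2, Lamb1, Fras1 and Frem2, and those higher were Itga3 and Itgb4. In unlabelled Lgr5-positive cells 5 were called against 9.5% of genes, 4.68% higher and 4.82% lower, namely Col4a1, Col4a2, Lamb1 and Frem2 lower and Itga3 higher. In unlabelled Lgr5-negative cells 8 were called against 13.3% of genes, 5.71% higher and 7.59% lower, with Col4a1, Col4a2, Lama1, Lama3, Lamb1, Lamc1 and Fras1 lower and Itga3 higher. These 3 comparisons use separate libraries, but these may come from the same embryos or pools, so they are not independent repeats. The anterior and posterior libraries of a population may likewise share embryos. The calls that survived the loss of any 1 library were Col4a1 in all 3 populations, Col4a2 in labelled and in Lgr5-negative cells, and Itga3, Lama1 and Lamb1 in Lgr5-negative cells. The difference between the stage changes of Lgr5-positive and Lgr5-negative unlabelled cells was called for no member against 0.168% of genes, 1 member having an unadjusted p below 0.05. DESeq2 also called 0 for that difference, and limma with library weights called 1, Col4a3.

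Labelled Lgr5-positive cells of the Axin2 cohort were sorted at E13.5 and from posterior gut at E15.5 and stand outside the stage comparison. Col4a1 had 5.21, 10.8 and 2.58 CPM there at E15.5 and 174, 89.7 and 12.8 CPM at E13.5. Itga3 had 32.5, 36.9 and 37.5 CPM at E15.5 and 47.1, 51.2 and 32.2 CPM at E13.5. Col4a1 was thus lower at E15.5 without overlap, and Itga3 was not higher, which was not tested.

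Posterior and anterior gut at E15.5 were compared over 9 libraries each, which may come from the same embryos. No member was called against 3.64% of genes, and 1 had an unadjusted p below 0.05. That member was Col4a2, with a lowest, median and highest level of 0.660, 1.96 and 10.3 CPM in posterior libraries and 0.431, 0.775 and 1.57 CPM in anterior libraries. Its log2 fold change was 1.33 ± 0.41 (adjusted p = 0.0661), and DESeq2 called it. The 3 highest posterior libraries were unlabelled Lgr5-positive cells, at 5.61, 5.58 and 10.3 CPM. Limma with library weights called 3 other members, all lower in posterior gut, namely Itga3, Itga6 and Nid1.

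The Lgr5 sort was compared within unlabelled cells in 4 settings, and no member was called in any of them. All genes called amounted to 0.393% in posterior gut at E15.5, 0% in anterior gut at E15.5, 0.477% in the Id2 cohort at E13.5 and 0.87% in the Axin2 cohort at E13.5. Unadjusted p-values below 0.05 were found for 8, 0, 1 and 1 members in that order, DESeq2 called 1, 0, 0 and 1, and limma with library weights called 2, 0, 0 and 3. In posterior gut the 28 members had a median log2 fold change of 1.03, all genes having 0.12, and 13 members did not overlap between the groups, against 30.4% of all genes. Col4a2 had 5.61, 5.58 and 10.3 CPM in posterior Lgr5-positive libraries and 1.25, 0.660 and 1.03 CPM in posterior Lgr5-negative libraries (log2 fold change 2.74 ± 0.73, adjusted p = 0.0904).

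In that posterior comparison Itga6 had 92.2, 101 and 94.6 CPM in Lgr5-positive libraries and 66.3, 48.4 and 46.8 CPM in Lgr5-negative libraries (0.72 ± 0.27, adjusted p = 0.214). Of its Lgr5-positive libraries, replicates 1 and 3 were over the mesenchymal limit, at 92.9 and 116 CPM, and replicate 2 had 19.6 CPM. The 3 Lgr5-negative libraries had 6.66 to 10.4 CPM. The part of those reads in the result was not tested. The difference of this sort between cohorts at E13.5 was called for 0 members and 0% of genes, with 1 member at an unadjusted p below 0.05, and by DESeq2 and limma for 0.

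At E13.5 Itga1 was 1 of 3 members without overlap between the Axin2 cohort's unlabelled populations, against 17.8% of all genes. It had 0.804, 2.07 and 0.462 CPM in the Lgr5-positive libraries and 0 reads in all 3 Lgr5-negative libraries. The edgeR test did not call it (adjusted p = 0.233), whereas DESeq2 did. In the Id2 cohort the same gene had 1.06, 0 and 0.121 CPM in Lgr5-positive libraries and 0.249, 2.26 and 0.0322 CPM in Lgr5-negative libraries, which overlap.

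Labelled and unlabelled cells were compared within Lgr5-positive cells in 3 settings. No member was called in posterior gut at E15.5 (0% of genes), in the Id2 cohort at E13.5 (0.0387%) or in the Axin2 cohort at E13.5 (0.322%). Members with an unadjusted p below 0.05 numbered 3, 4 and 10 in that order, DESeq2 called 0, 0 and 2, and limma with library weights 0, 0 and 1. The Axin2 comparison at E13.5 had a median log2 fold change of 0.82 over members and of -0.02 over all genes. Itga6 had 167, 153 and 167 CPM in labelled and 64.9, 94.8 and 77.9 CPM in unlabelled Lgr5-positive cells (1.00 ± 0.27, adjusted p = 0.0793), and was called by DESeq2 and by limma. Its groups did not overlap, as for 6 members in all and 20.9% of all genes.

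Matrix genes in that comparison differed within the labelled group. Col4a1 had 174, 89.7 and 12.8 CPM in labelled and 18.2, 40.5 and 25.6 CPM in unlabelled Lgr5-positive cells. Lamb1 had 333, 137 and 51.9 CPM in labelled and 59.2, 105 and 72.6 CPM in unlabelled cells. In both genes labelled replicates 1 and 2 were high and replicate 3 was below all 3 unlabelled libraries. The summed mesenchymal markers of the labelled libraries were 1133, 83.3 and 13.4 CPM, in the same order, and those of the unlabelled ones 25.5 to 46.6 CPM. The part of those reads in these results was not tested.

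Labelled cells of unstated Lgr5 state were also compared with unlabelled Lgr5-negative cells. No member was called in posterior gut at E15.5, anterior gut at E15.5, the Id2 cohort or the Axin2 cohort at E13.5. Genes called over the whole table were 0%, 0%, 0.00645% and 0%. Unadjusted p-values below 0.05 were found for 1, 0, 2 and 0 members, and DESeq2 and limma with library weights called 0 in each. The 1 in posterior gut was Itga6, at 86.1, 88.8 and 74.4 CPM in labelled cells and 66.3, 48.4 and 46.8 CPM in Lgr5-negative cells (0.57 ± 0.27, adjusted p = 1).

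The 2 cohorts were not tested against each other, since line, depth and share of unassigned reads go together. Values at E13.5 are set side by side over 12 libraries each. Itgb1 had a lowest, median and highest level of 196, 262 and 443 CPM in Id2 libraries and 478, 554 and 688 CPM in Axin2 libraries, without overlap. Dag1 had 25.1, 43.0 and 77.0 CPM in Id2 libraries and 57.5, 112 and 222 CPM in Axin2 libraries. Fras1 had medians of 117 CPM in Id2 libraries and 84.6 CPM in Axin2 libraries, and Col4a1 had 33.2 and 25.3 CPM, both with wide overlap. Itga6 had medians of 48.0 CPM in Id2 libraries and 85.9 CPM in Axin2 libraries, and Itga3 of 19.6 and 28.03 CPM. Itgb4 had medians of 3.63 CPM in Id2 libraries and 4.44 CPM in Axin2 libraries. By median, 5 of 7 receptor genes were thus lower in Id2 libraries, while Itga2 was higher at 4.02 CPM in Id2 libraries and 1.76 CPM in Axin2 libraries, and Itga1 at 0.129 and 0 CPM. Directions and overlap between cohorts were not computed over all genes, so this count and the Itgb1 gap are descriptions only.

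High levels of the members gathered in a few libraries. Of the 28 tested members 26 had their highest value in 1 of the 10 libraries over the mesenchymal limit, or 92.9%, against 47.7% of all genes tested. Axin2-labelled Lgr5-positive cells at E13.5, replicate 1, held 8 of these maxima, and Id2-labelled Lgr5-positive cells, replicate 2, held 6. Id2-labelled Lgr5-positive cells had 469, 1412 and 715 CPM of matrix members with 542, 65.9 and 13.7 CPM of mesenchymal markers in replicates 1 to 3. Axin2-labelled Lgr5-positive cells at E13.5 had 1270, 1135 and 361 CPM of matrix members with 1133, 83.3 and 13.4 CPM of mesenchymal markers. Fras1 reached 374 CPM and Frem2 116 CPM in Id2-labelled Lgr5-positive cells, replicate 2.

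**Figure D5:**
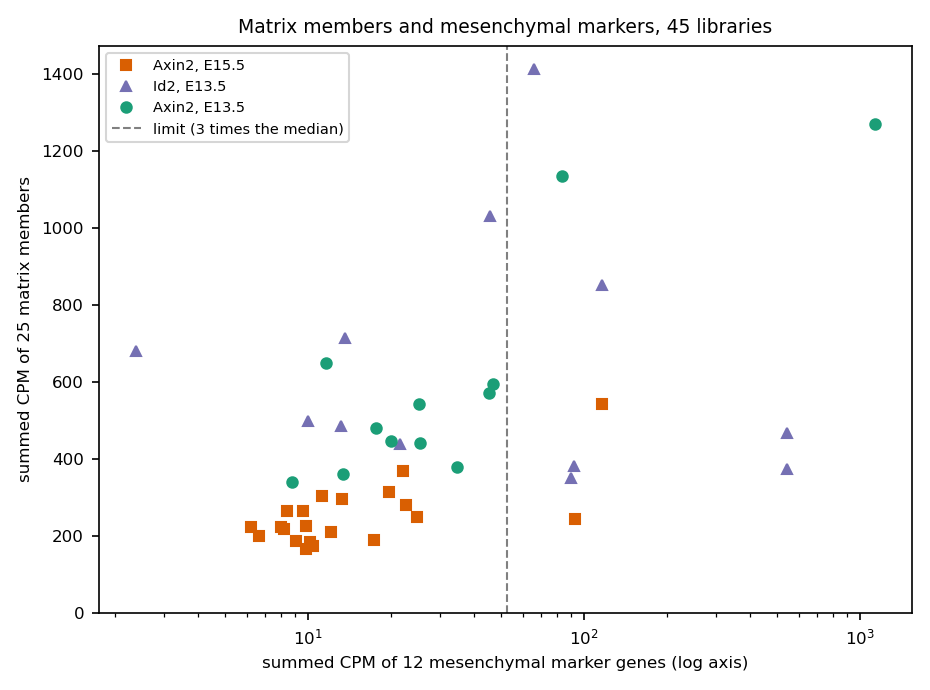
Summed CPM of the 25 matrix members (vertical) against summed CPM of 12 mesenchymal marker genes (horizontal, log axis) in the 45 libraries, by stage and cohort; the dashed line is the limit of 52.8 CPM. E15.5 libraries lie mostly below E13.5 libraries, the highest of them at 545 CPM, and libraries right of the line range from 244 to 1412 CPM of matrix members.

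Genes around the members were described at the stage comparison from 6 lists, whose counts stand beside 33.5% of all genes called, 15.6% higher and 17.9% lower. Of 13 other tested basement membrane genes 2 rose and 3 fell. Tinagl1, a tubulointerstitial nephritis antigen-like matrix protein, averaged 67.4 ± 24.1 CPM at E15.5 and 21.1 ± 4.67 CPM at E13.5 (log2 fold change 1.71 ± 0.26), and Papln was also higher at 2.75 ± 0.84. Fbln1, which encodes fibulin-1, averaged 190 ± 20.7 CPM at E15.5 and 317 ± 42.0 CPM at E13.5 (-0.69 ± 0.10).

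Of 17 genes of collagen and laminin assembly 5 rose and 5 fell. Sparc, a collagen-binding glycoprotein, averaged 18.4 ± 21.7 CPM at E15.5 and 67.1 ± 23.1 CPM at E13.5 (-2.20 ± 0.25). Pxdn, the peroxidase that crosslinks collagen IV, averaged 33.3 ± 23.1 CPM at E15.5 and 98.2 ± 30.7 CPM at E13.5 (-1.66 ± 0.20), and the lysyl oxidase gene Loxl2 changed by -2.06 ± 0.38. Sec23a, a coat protein of the vesicles that carry procollagen, averaged 151 ± 34.5 CPM at E15.5 and 79.8 ± 11.4 CPM at E13.5 (0.96 ± 0.13). Plod2 and Tgm2, which encode a collagen-modifying and a crosslinking enzyme, were higher at 0.52 ± 0.16 and 0.63 ± 0.22, and were chosen after their values were seen.

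Of 11 matrix proteases and inhibitors 2 rose and 7 fell. Mmp11, stromelysin-3, averaged 2.46 ± 1.302 CPM at E15.5 and 38.5 ± 10.2 CPM at E13.5 (-3.92 ± 0.24). The inhibitors Timp2 and Timp1 changed by -2.03 ± 0.12 and -1.47 ± 0.21, and the protease Adamts1 by -1.92 ± 0.23. Of 10 other integrin subunits 1 rose and 6 fell. Itgb5, a partner of the alpha v subunit, averaged 42.3 ± 8.82 CPM at E15.5 and 131 ± 48.2 CPM at E13.5 (-1.52 ± 0.17). Itgav and Itgb6 changed by -0.74 ± 0.18 and -0.73 ± 0.19, and Itgb8 by -4.33 ± 0.79, with at most 0.611 CPM at E15.5 and 1.02 CPM at E13.5.

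Of 12 other receptor and hemidesmosome genes 1 rose and none fell. It was Sdc1, the epithelial heparan sulfate proteoglycan syndecan-1, at 326 ± 34.1 CPM at E15.5 and 237 ± 42.9 CPM at E13.5 (0.52 ± 0.14). Of 11 integrin adaptor genes 2 rose and 3 fell. Fermt2, the integrin activator kindlin-2, averaged 14.4 ± 5.77 CPM at E15.5 and 36.7 ± 6.55 CPM at E13.5 (-1.35 ± 0.17), and Pxn, which encodes paxillin, averaged 41.9 ± 17.8 CPM at E15.5 and 16.6 ± 7.51 CPM at E13.5 (1.37 ± 0.35). Ptk2 and Ilk, kinases of focal adhesions, changed by -0.29 ± 0.10 and -0.28 ± 0.11. The genes named in these lists had adjusted p below 0.05 in edgeR's test, and the errors are SD over 18 and 9 libraries for levels and SE for log2 fold changes.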

How the data were processed

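The authors deposited whole-number read counts per gene, 1 table for each of 45 libraries. Per the submitters' processing notes, bcl2fastq 1.8.4, STAR 2.3.1z13, SAMtools 1.2, HTSeq 0.6.1p1 and DESeq2 1.14.1 were used with build mm9. The sources used here do not give the annotation or the strand option, and overlapping or antisense genes may share reads. Per the labels' protocols, polyA RNA of 500 cells was amplified with SMARTer chemistry. The reads carry no molecular identifiers, so p-values rest on the spread between libraries, some of which may share an embryo or pool.

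The 5 closing lines of each table, 23.9 to 49.0% of reads, entered neither library sizes nor tests. No replicates were copies of each other (chi-square per degree of freedom 14.3 to 346). Counts were fitted with edgeR 4.0.16 in R 4.3.3 (quasi-likelihood, robust, TMM, filterByExpr with minimum count 10 and minimum total 15) as 15 group means over 45 libraries, with 30 residual degrees of freedom and Benjamini-Hochberg adjustment over 15513 genes. The script was tested on simulated data. As alternatives, limma 3.58.1 (voom with library weights) and DESeq2 1.42.0 were run, with other scaling and filters, fewer libraries, a mesenchymal covariate and a replicate block. Exon lengths are from GENCODE M21 (GRCm38), used as lengths only. Members with adjusted p below 0.05 and an average of at least 3 log2 CPM, and the most abundant of each role, are given with sample values, and up to 4 genes of each further list. A gene that this rule names is not reported here. Members and lists were chosen with earlier results of these data known. Same-numbered libraries deviated together (every correlation above 0.1) in both E13.5 comparisons of the Lgr5 sort, in both Id2 label comparisons, in the anterior label comparison and, for posterior against anterior gut, in labelled cells only. The block changed no member's call there.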

Additional observations from a re-analysis of the deposited data

How the results depend on the processing

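All 38 calls of single members kept their direction under the 9 alternatives to the main analysis and every loss of 1 library, and DESeq2, voom with library weights, the fit of the cohort's libraries alone and the fit without libraries over the mesenchymal limit kept all 38. At stage, voom called 8 members higher and 15 lower, where the main counts were 5 and 11. It called 57.7% of all genes there, where the main analysis called 33.5%. Leaving out 1 library gave 4 to 6 higher and 9 to 13 lower. In labelled cells voom called 16 (main 9, 3 to 8 without 1 library), against 35.4% of all genes (main 12.4%). In unlabelled Lgr5-positive cells (main 5, 2 to 4) DESeq2 and the cohort's libraries alone called 9 each, voom 16, and RLE factors, no filter and the replicate block 3 each. In unlabelled Lgr5-negative cells (main 8, 5 to 7) voom called 24, the cohort alone 13 and the fit without libraries over the mesenchymal limit 15. Of counts that were 0, posterior against anterior gut gave 1 with DESeq2, 3 with voom, 1 with the cohort alone and 0 to 1 without 1 library. The Lgr5 sort gave 1 with DESeq2 and 3 with voom in Axin2 cells at E13.5, and 1 with DESeq2, 2 with voom and 1 with the cohort alone in posterior gut. Label within Lgr5-positive Axin2 cells at E13.5 gave 2 with DESeq2, 1 with voom, 4 with the cohort alone and 0 to 2 without 1 library. The same label comparison in Id2 cells gave 0 to 1, and the difference of stage changes 1 with voom. The fit without libraries over the limit kept only replicate 3 of labelled Lgr5-positive Axin2 cells at E13.5, so its count there is not given. That fit also kept only replicate 2 of posterior unlabelled Lgr5-positive cells at E15.5. The other comparisons stayed at 0 to 0. For counts by alternative settings that stand without a share of all genes, here and above, that share is not given. Such counts are no result about the members alone. The cause of these differences was not tested. Same-numbered libraries of the 2 stages did not deviate together, so the replicate block there (5 higher, 12 lower) pairs numbers only. With 3 libraries a group, changes of members below about 1 CPM rest on few reads.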
